A study of Bos taurus with 179 samples.

Results

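ARRDC2 and NAALAD2 were followed in single growing oocytes of Bos taurus, from < 60 to > 120 μm in diameter. They were taken as 2 of the 21218 gene IDs in the count table, ARRDC2 as ENSBTAG00000039335 and NAALAD2 as ENSBTAG00000000284, each on 1 line. Both were among the 14087 genes kept by the filter on low counts. They were chosen by their changes in the same data on either side of the 100–109 μm group, measured as log2 fold changes from 80–99 μm to that group and from it to 110–119 μm. Their levels across the size groups are therefore given as a description, without a test.

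ARRDC2 encodes an alpha-arrestin, a family of adaptor proteins that bring ubiquitin ligases of the NEDD4 family to membrane receptors and transporters, which are then internalised and sorted in endosomes. NAALAD2 encodes a zinc peptidase anchored in the cell membrane, also known as glutamate carboxypeptidase III, which releases glutamate from the dipeptide N-acetylaspartylglutamate. A growing oocyte accumulates transcripts and exchanges signals and metabolites with the follicular cells around it.

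The oocytes came from abattoir ovaries, were denuded of follicular cells by pipetting and were measured one by one, and the sources used here give neither the animal nor its age. The groups carried no treatment or genetic change. The 8 groups were cut every 10 μm. A took in 21 oocytes < 60 μm, B took in 25 of 60–69 μm, C had 23 of 70–79 μm, D had 24 of 80–89 μm, E had 21 of 90–99 μm, F had 18 of 100–109 μm, G had 19 of 110–119 μm and H had 14 oocytes > 120 μm. In all, 97 oocytes belonged to library replicate 1, read at 150 bp, and 68 to replicate 2, read at 75 bp. The replicates were unevenly spread, with 3 and 18 oocytes in A and 10 and 4 in H.

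Total counts per oocyte ranged from 277126 to 8038061, and the median total per group was lowest in F (923622 counts) and highest in A (2563430 counts). A single oocyte of F in replicate 1, 109.57 μm in diameter, held 7856854 counts, 52.9% of all counts of F in that replicate. The deepest oocyte of H in replicate 1, 125.6 μm in diameter, held 8038061 counts, 33.1% of its group and replicate. The fold changes of ARRDC2 and NAALAD2 around F and from G to H are given with and without these oocytes, whereas correlations over sums and the values of other genes include them unless stated. The oocyte markers BMP15, BTG4, CPEB1, CCNB3 and BCAR4 had counts in every oocyte analysed, and ACTL8 in 116. Of 13 gene IDs for 12 markers of somatic ovarian cells, CSF1R had counts in every oocyte and COL1A2 and ACTA2 in 143, whereas the thecal and granulosa genes CYP11A1, AMHR2 and CYP17A1 had counts in at most 10.

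ARRDC2 mRNA was present in nearly all oocytes and, by the median, was more abundant in F than in any other group in both replicates. Levels per oocyte are given as counts per 1000000 (CPM) of the effective library size, meaning the total count scaled by TMM normalization. In replicate 1, the 11 oocytes of F had a lowest level of 58.0 CPM, a median of 109 CPM and a highest level of 515 CPM. In replicate 2, the 7 oocytes of F ranged from 6.86 to 82.3 CPM around a median of 49.1 CPM. None of the 36 oocytes of A, B and C in replicate 1 reached the median of F, and 34 of them lay below the lowest oocyte of F. In replicate 2 none of the 33 oocytes of A, B and C reached the median of F either, but 10 of them lay below its lowest oocyte.

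**Figure D1:**
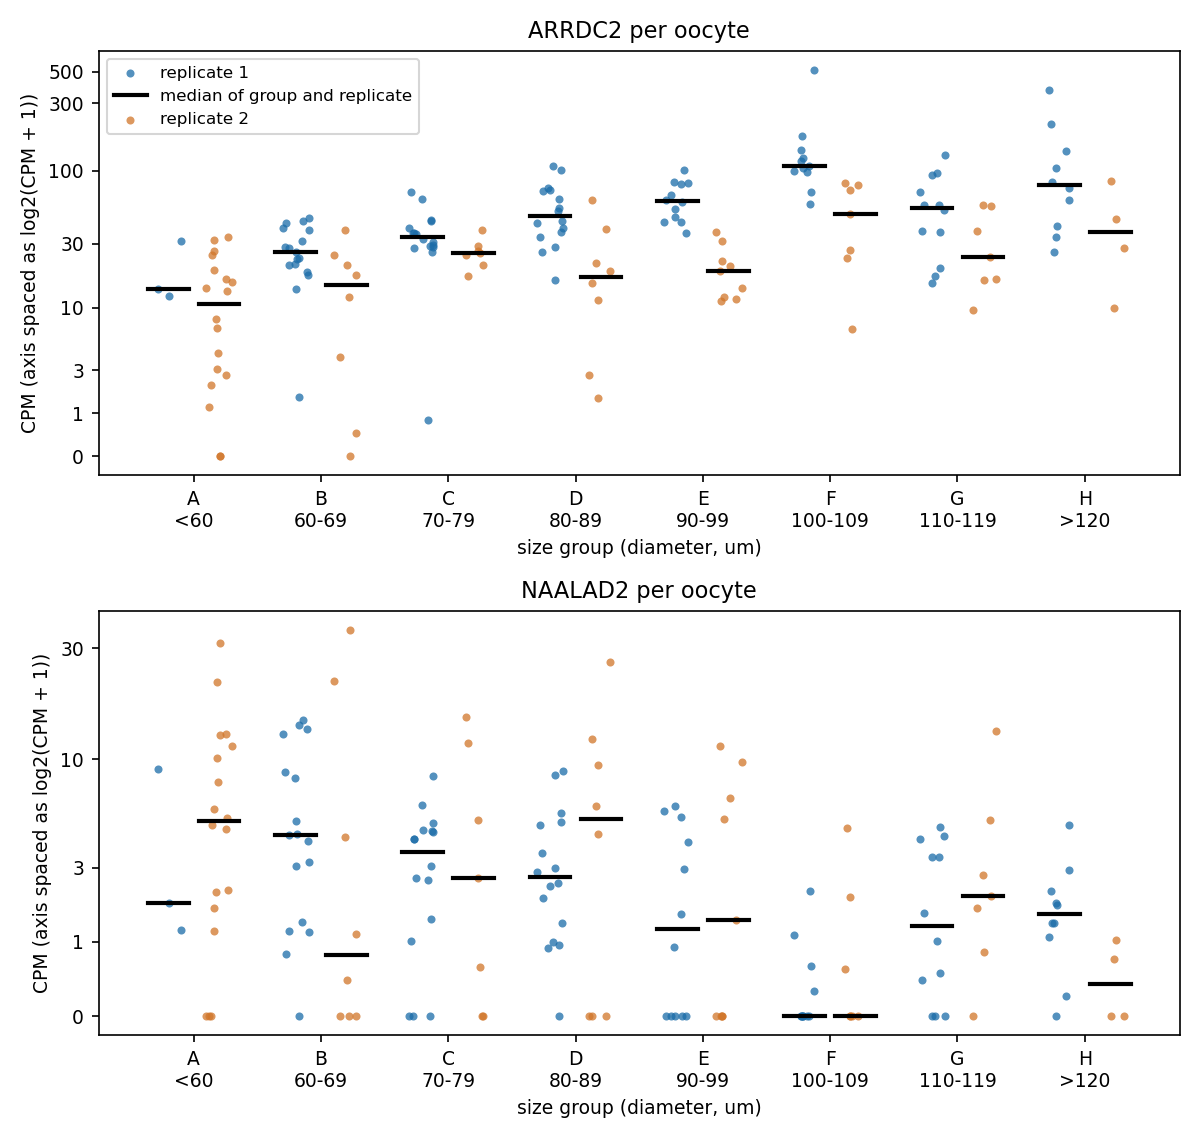
Level of ARRDC2 (top) and NAALAD2 (bottom) in each oocyte analysed, in CPM on an axis spaced as log2(CPM + 1), by size group and library replicate, with 1 point per oocyte and a black line at the median. The medians of ARRDC2 are highest in F, at 109 and 49.1 CPM, and those of NAALAD2 are 0 in F in both replicates.

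Below 100 μm, the median level of ARRDC2 in replicate 1 stood in the order of oocyte size. It was 14.05 CPM in A, 26.2 CPM in B, 33.9 CPM in C, 47.5 CPM in D and 61.4 CPM in E. In replicate 2 the medians of the same groups were 10.8, 15.05, 25.9, 17.2 and 19.1 CPM, with no order beyond C. Among the oocytes without any count of ARRDC2, 2 belonged to A and 1 to B, all in replicate 2, with totals between 1451585 and 3992387 counts.

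Beyond 110 μm the level was lower than in F and then higher again in the largest oocytes. In G the oocytes of replicate 1 ranged from 15.6 to 129 CPM around a median of 54.8 CPM, and those of replicate 2 from 9.58 to 57.3 CPM around 24.2 CPM. In H the 10 oocytes of replicate 1 ranged from 26.3 to 370.5 CPM around 79.7 CPM, and the 4 of replicate 2 from 9.91 to 85.4 CPM around 36.7 CPM. H thus had the second highest median in both replicates. In replicate 1, the median of F was exceeded by 1 of 12 oocytes of G and by 3 of 10 oocytes of H.

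Groups with neighbouring medians were not separated oocyte by oocyte, whereas in replicate 1 all 3 oocytes of A and all 17 of B lay below the lowest oocyte of F. When the 8 groups were ordered by their median within each replicate, the ranges of neighbours in that order overlapped in 14 of 14 pairs for ARRDC2, and with all oocytes their means differed by less than the larger of their SDs in 14 of 14 pairs. The mean level of ARRDC2 in F was 146.7 ± 126 CPM (SD, n = 11) in replicate 1, or 109.9 ± 33.3 CPM (SD, n = 10) without the deepest oocyte, and 48.7 ± 30.2 CPM (SD, n = 7) in replicate 2. In E it was 63.3 ± 20.0 CPM (SD, n = 12) and 20.0 ± 9.05 CPM (SD, n = 9). In replicate 1, F and E thus differed by less than the larger SD with the deepest oocyte and by more without it.

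NAALAD2 mRNA was scarce. By the median per oocyte it was lowest in F in both replicates, but by the mean it was lowest in F only in replicate 1 (0.385 CPM), whereas in replicate 2 H had a lower mean (0.433 CPM) than F (1.05 CPM). Of the 18 oocytes of F, 11 had no count of NAALAD2, 4 had 1 count, and the remaining oocytes had 2, 2 and 5 counts. In replicate 1 the 11 oocytes of F ranged from 0 to 2.23 CPM around a median of 0, and in replicate 2 the 7 oocytes ranged from 0 to 4.77 CPM, also around a median of 0. The highest oocyte of F in replicate 1 was exceeded by 46 of the 86 oocytes of other groups in that replicate, and the highest in replicate 2 by 25 of 61.

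The highest single oocytes for NAALAD2 were found in A and B of replicate 2, whereas the highest medians were those of B in replicate 1 and of D in replicate 2. In replicate 2 the 18 oocytes of A ranged from 0 to 31.7 CPM around a median of 5.16 CPM, and the 8 oocytes of B from 0 to 35.8 CPM around 0.773 CPM. In replicate 1 the 17 oocytes of B ranged from 0 to 14.9 CPM around a median of 4.42 CPM. The 3 oocytes of A in replicate 1 had 1.23, 1.87 and 9.03 CPM. The level thus varied widely among oocytes of like size, and in B of replicate 2 a single oocyte held 70.0% of the group's 180 counts.

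In replicate 1 the medians of the intermediate groups stood at 3.63 CPM in C, 2.66 CPM in D and 1.25 CPM in E. In replicate 2 they were 2.63, 5.29 and 1.46 CPM. After F, the median was 1.31 CPM in G and 1.60 CPM in H in replicate 1. In replicate 2 it was 2.08 CPM in G and 0.354 CPM in H, where the 4 oocytes held 2 counts of NAALAD2 in all. For NAALAD2, too, the ranges of neighbours in the order of medians overlapped in 14 of 14 pairs, and their means differed by less than the larger SD in 14 of 14 pairs.

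The plot against diameter shows where the levels stood within the size groups. Over the 97 oocytes of replicate 1, Pearson's r between diameter and log2(CPM + 1) was 0.52 for ARRDC2 (Spearman's rho 0.58) and -0.39 for NAALAD2 (rho -0.38). Over the 68 oocytes of replicate 2 it was 0.47 (rho 0.43) and -0.31 (rho -0.29). These describe oocytes that share library batches and an unknown number of animals. In the 14 combinations of group and replicate with at least 6 oocytes, r with diameter lay between -0.31 and 0.46 for ARRDC2, with a median of 0.042, and between -0.50 and 0.56 for NAALAD2, with a median of -0.11.

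**Figure D2:**
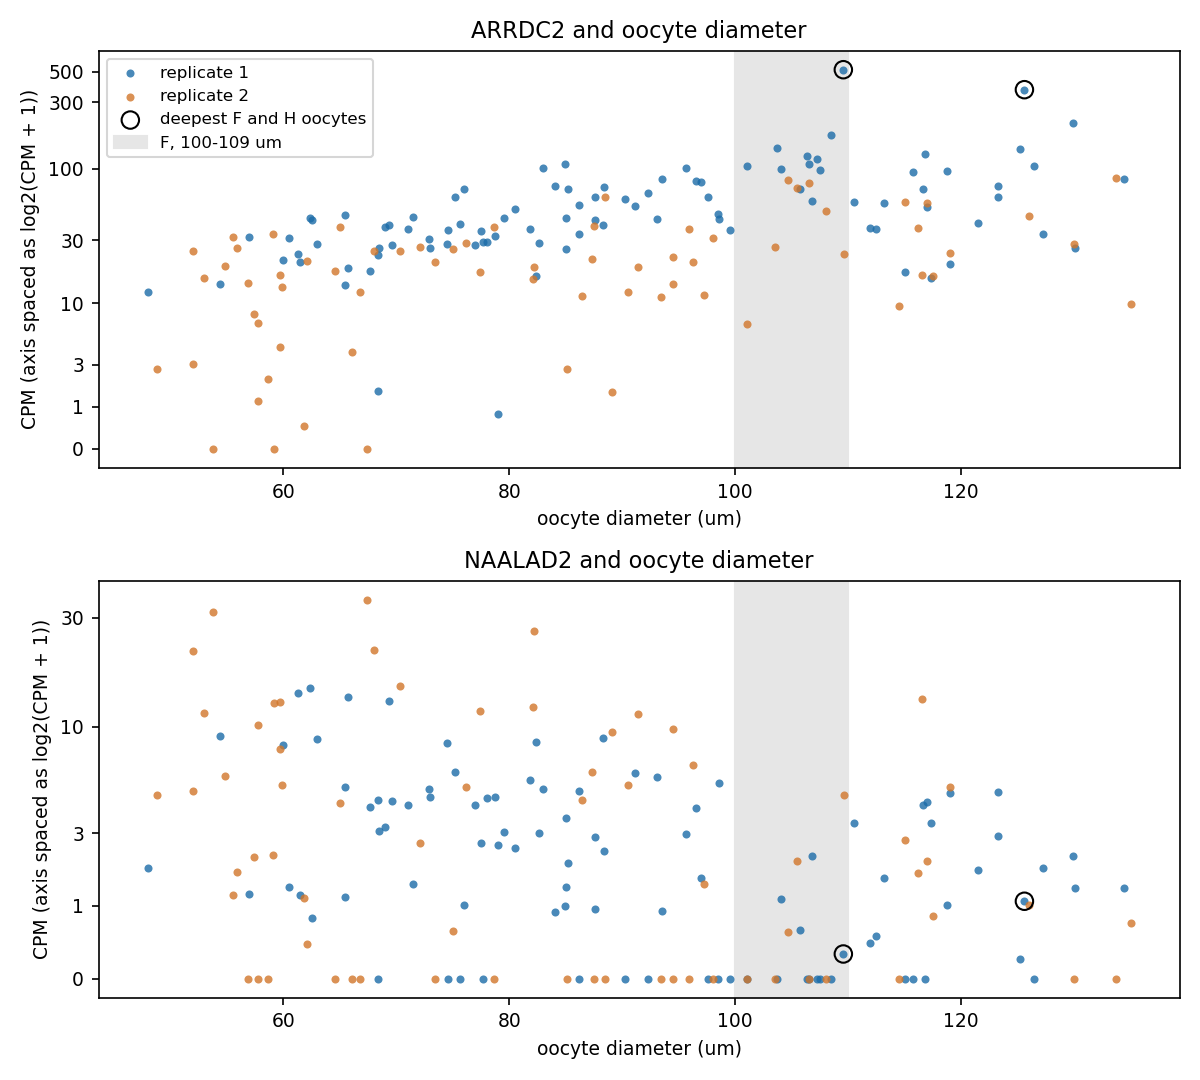
Level of ARRDC2 (top) and NAALAD2 (bottom) against oocyte diameter in μm, in CPM on an axis spaced as log2(CPM + 1), with 1 point per oocyte coloured by replicate, F shaded and the deepest oocytes of F and H in replicate 1 circled. Both circled oocytes have the highest level of ARRDC2 of their group, 515 and 370.5 CPM, and NAALAD2 levels of 0.267 and 1.09 CPM.

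In steps of 5 μm, the median of ARRDC2 in replicate 1 was 62.5 CPM at 95–100 μm (7 oocytes), 105 CPM at 100–105 μm (3 oocytes), 113 CPM at 105–110 μm (8 oocytes) and 46.9 CPM at 110–115 μm (4 oocytes). The 3 oocytes at 100–105 μm, between 100.4 and 141 CPM, all lay above the 4 at 110–115 μm, between 36.4 and 57.5 CPM. In replicate 2 the corresponding medians were 26.0, 26.98, 61.0 and 9.58 CPM, over 4, 3, 4 and 1 oocytes. Counts of NAALAD2 were found in 1 of 3 oocytes at 100–105 μm and in 3 of 8 at 105–110 μm in replicate 1, against 4 of 7 at 95–100 μm and 4 of 4 at 110–115 μm. In replicate 2 the share was no lower at 105–110 μm than at 95–100 μm, with counts in 2 of 4 oocytes at 95–100 μm, 1 of 3 at 100–105 μm, 2 of 4 at 105–110 μm and 0 of 1 at 110–115 μm.

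ARRDC2 and NAALAD2 stood in opposite directions on either side of F, and their levels were weakly and inversely related across oocytes. Pearson's r between their log2(CPM + 1) values was -0.36 over the 97 oocytes of replicate 1 (rho -0.47) and -0.31 over the 68 of replicate 2 (rho -0.27). With the group means removed it was -0.086 (rho -0.22) and -0.20 (rho -0.16). Within the 14 combinations of group and replicate, r was negative in 10, between -0.53 and 0.36 with a median of -0.24. Over the 16 sums described next, centred within each replicate, r was -0.83, a value that the choice of the genes helps to set. Counts of NAALAD2 were sparse, and the weak values within groups are no finding.

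For comparisons between size groups, raw counts were summed over the oocytes of each group and replicate, which gave 16 sums. These were fitted in edgeR with the library replicate as a block. The sum for ARRDC2 in F of replicate 1 held 4679 counts (315 CPM of the total count, 95% Poisson interval 306 to 324.4), of which the deepest oocyte alone gave 3862 counts, or 82.5%. Without that oocyte the sum stood at 117 CPM (interval 109 to 125). F in replicate 2 held 504 counts (47.5 CPM, interval 43.5 to 51.9), of which no oocyte gave more than 29.4%. These intervals cover counting error only.

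**Figure D3:**
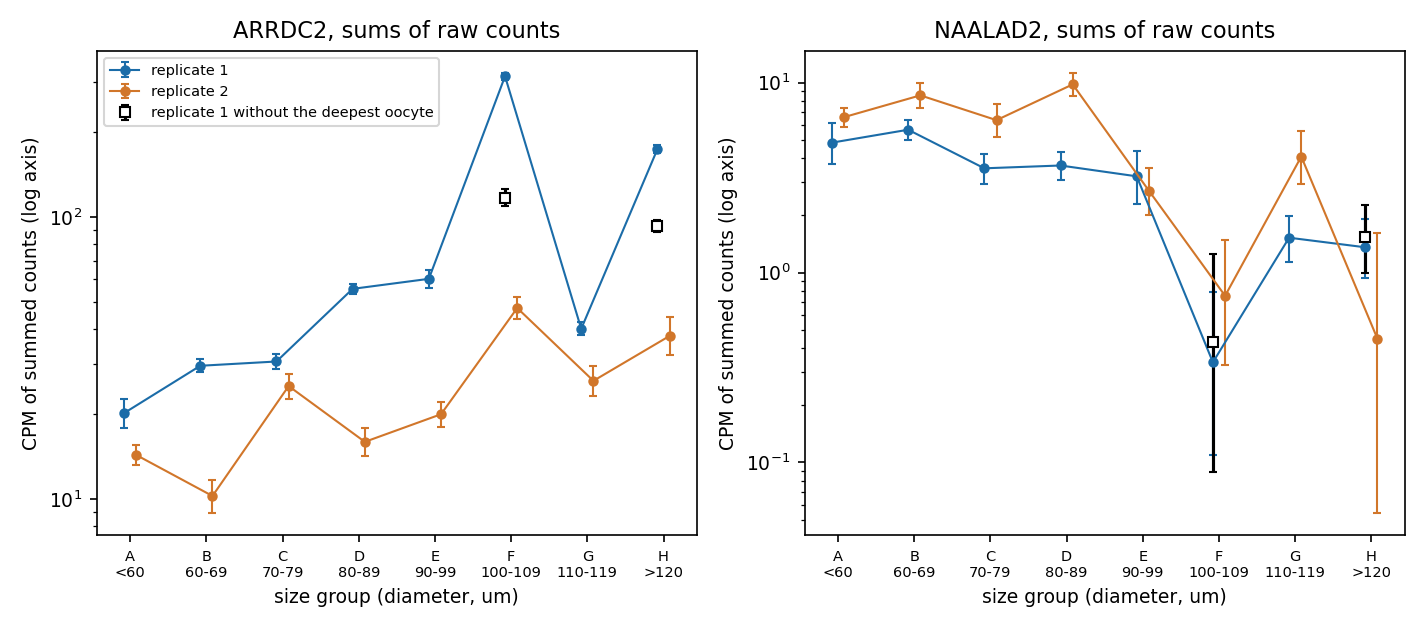
CPM of the summed raw counts (log axis) of ARRDC2 (left) and NAALAD2 (right) by size group, with 1 point per group and replicate, 95% Poisson intervals for counting error as bars, and open squares for replicate 1 of F and H without the deepest oocyte. ARRDC2 in F of replicate 1 stands at 315 CPM with that oocyte and at 117 CPM without it.

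ARRDC2 was 4.02 times as high in F as in oocytes of 80–99 μm, a log2 fold change of 2.01 (SE 0.34), which was 2.43 in replicate 1 and 1.31 in replicate 2. From F to G its log2 fold change was -1.79 (SE 0.43), with -2.65 in replicate 1 and -0.70 in replicate 2. Without the deepest oocyte of F these became 1.13 and -0.89, nearer to the values of replicate 2. Fitted on single oocytes, they were 1.31 and -1.14. The size of these differences thus depended on that oocyte. Their direction was the same in each replicate, which the choice of the genes helps to set.

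NAALAD2 had 13 counts in F among 25450424 counts in all, 0.511 CPM (95% Poisson interval 0.272 to 0.873). In E it had 90 counts, 2.90 CPM (interval 2.34 to 3.57), and in G 93 counts, 2.09 CPM (interval 1.69 to 2.56). The log2 fold change from 80–99 μm to F was -3.12 (SE 0.65), with -3.05 in replicate 1 and -2.73 in replicate 2. From F to G it was 2.52 (SE 0.70), with 2.22 and 2.45. Without the deepest F oocyte, which carried 2 of the 13 counts, the values were -2.96 and 2.40. For NAALAD2 these values around F were thus similar in both replicates and with or without that oocyte, although they rest on few counts. F was the lowest sum only in replicate 1. In replicate 2 H held 2 counts, 0.448 CPM (interval 0.0542 to 1.62), below the 8 counts of F, 0.754 CPM (interval 0.326 to 1.49), and these intervals overlapped.

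**Figure D4:**
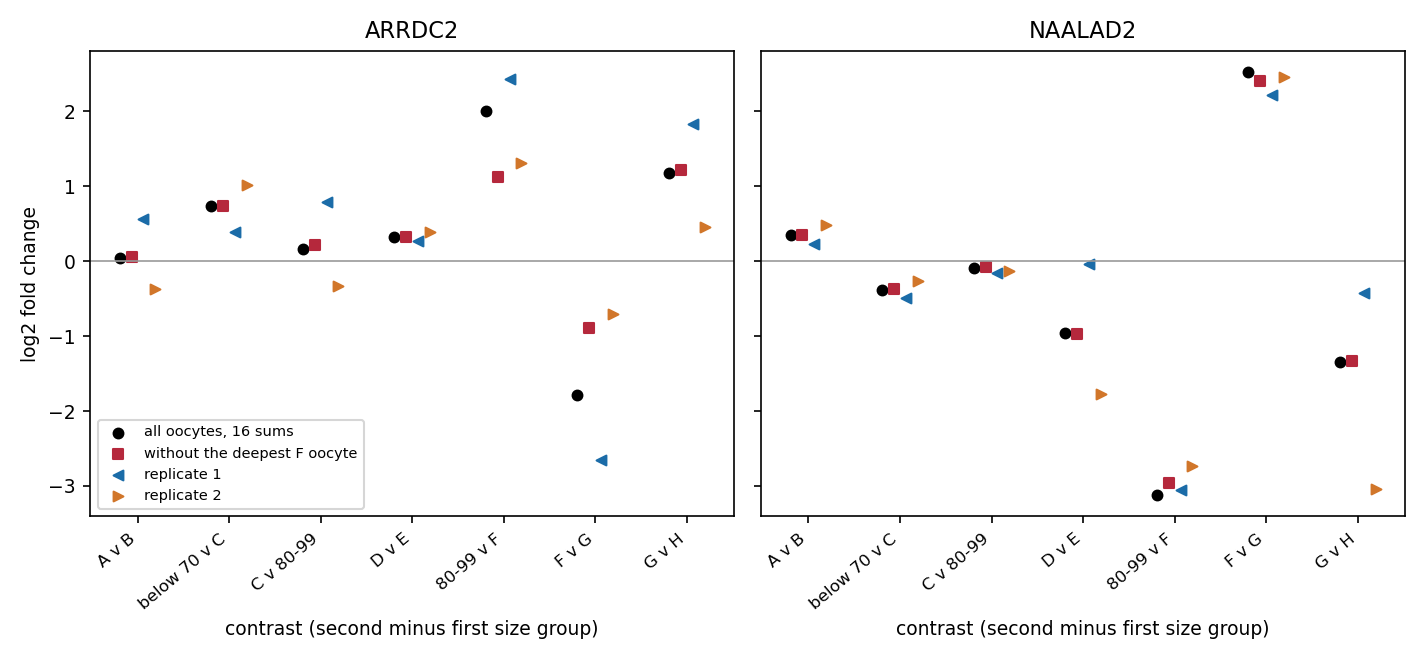
Log2 fold changes of ARRDC2 (left) and NAALAD2 (right) in the 7 contrasts of successive size groups, second minus first, fitted on all 16 sums, without the deepest F oocyte of replicate 1, and as differences within each replicate. From 80–99 μm to F and from F to G, all 4 values of each gene lie on the same side of 0, and ARRDC2 moves from 2.01 to 1.13 and from -1.79 to -0.89 without that oocyte.

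The spread between replicates varied over the 7 contrasts. For ARRDC2 the SD between replicates was lowest from D to E (0.083) and highest from F to G (1.38), and for NAALAD2 it was lowest from C to 80–99 μm (0.020) and highest from G to H (1.84). From oocytes < 70 μm to C, ARRDC2 had a log2 fold change of 0.74 (SE 0.35), with 0.38 in replicate 1 and 1.02 in replicate 2, and from A to B its replicates stood on opposite sides of 0, at 0.56 and -0.38. From G to H it was 1.17 (SE 0.42), with 1.82 in replicate 1 and 0.46 in replicate 2. It was 0.66 once the deepest oocyte of H was left out, an oocyte that held 64.3% of the ARRDC2 counts of H in replicate 1. NAALAD2 had -0.96 from D to E (SE 0.60), with -0.038 and -1.77, and -1.35 from G to H (SE 0.65), with -0.43 and -3.04, or -1.25 without the deepest oocyte of H. The replicates differed by more than the fitted change for ARRDC2 from A to B, from C to 80–99 μm, from F to G and from G to H, and for NAALAD2 from D to E and from G to H.

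Across all 14087 genes, 70 (0.497%) passed the threshold from 80–99 μm to F and 547 (3.88%) from F to G, by edgeR's quasi-likelihood test at a Benjamini-Hochberg adjusted p of 0.05. From 80–99 μm to F, 61 genes (0.433%) were called higher and 9 (0.0639%) lower, and from F to G, 1.89% of genes were called higher and 1.99% lower. ARRDC2 and NAALAD2 were among the genes called in both contrasts, and nothing is read from this, because the contrasts were used to choose them. In all, 10 genes (0.071%) were called higher in F and then lower in G, and 4 (0.0284%) lower in F and then higher in G. Of these 14, a symbol was paired only with ARRDC2, NAALAD2 and CLU in the tables used here. Without the deepest F oocyte, edgeR called 0 genes from 80–99 μm to F (1220 at an unadjusted p under 0.05) and hence 0 in opposite directions. On all oocytes DESeq2 called 506 and 185. From F to G the count was 0 without the replicate block, 2 with all 179 oocytes, 1967 with DESeq2 and 4081 with single oocytes, and on leaving out 1 sum it lay between 0 (without F or G of replicate 1) and 1478 (without F of replicate 2). In the other contrasts edgeR called 2 genes from A to B (0.0142%), 19 from < 70 μm to C (0.135%) and 1 from G to H (0.0071%), and 0 from C to 80–99 μm and from D to E, where 780 and 469 genes had an unadjusted p under 0.05 and DESeq2 called 17 and 0.

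F also had the lowest median depth, whose part in the low counts of NAALAD2 was not tested. The 11 oocytes of F without a count of NAALAD2 had totals between 349196 and 2605926 counts. The limit that a count of 0 allows, 3 counts, thus corresponds to between 1.15 and 8.59 CPM of the total count. In 9 of these 11 oocytes that limit lay above 1.75 CPM, the median of G on effective library sizes. These scales differ, so that the number of oocytes is approximate. A count of 0 does not exclude such a level in these oocytes. At least 1 count of NAALAD2 was found in 38.9% of the oocytes of F (7 of 18, 95% exact binomial interval 17.3 to 64.3%), 57.1% of E (12 of 21, 34.02 to 78.2%), 78.9% of G (15 of 19, 54.4 to 93.9%) and between 78.3 and 85.7% of the oocytes of the other groups.

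After each oocyte was thinned to 250000 counts, which left no oocyte out, 1 of 18 oocytes of F had a count of NAALAD2, or 5.56% (exact interval 0.141 to 27.3%). Thinning was a single random draw of counts, and this interval does not cover how the draw might vary. In the other groups the share was then between 42.9% (E and H) and 66.7% (A). At that depth the mean was 0.0556 counts per oocyte in F and 0.579 in G, and F held 1 count in all, so that any fold change fitted against it rests on that count. For ARRDC2 the mean was 28.1 counts in F, 11.3 in E, 10.2 in G and 23 in H, and from 80–99 μm to F and from F to G the fitted log2 fold changes on thinned counts were 1.21 and -1.08.

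**Figure D5:**
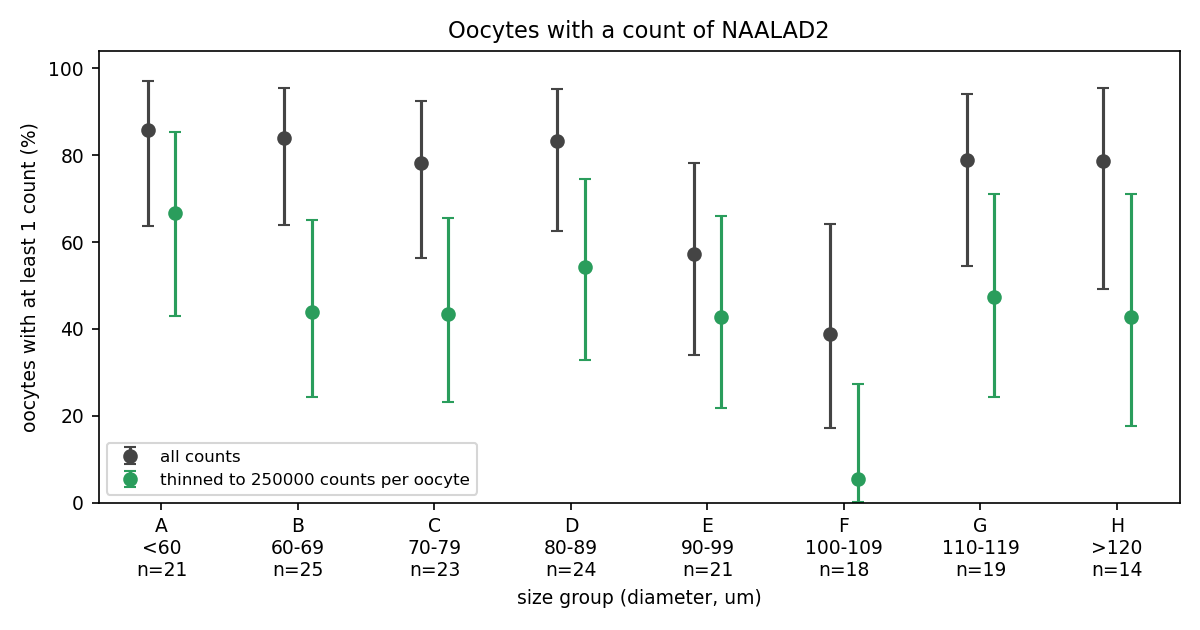
Share of oocytes with at least 1 count of NAALAD2 in each size group, in %, with all counts (grey) and after thinning each oocyte to 250000 counts (green), with exact 95% binomial intervals as bars. F is the lowest group both ways, at 38.9% and 5.56%, the latter from a single random draw of counts.

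Markers of somatic cells were also followed across F. The summed level of the 13 somatic marker IDs ranged from 28.6 to 232.9 CPM per oocyte in F, with a median of 137 CPM, against medians of 108 CPM in E and 60.6 CPM in G. It was 191 CPM in the deepest F oocyte and 113 CPM in the deepest H oocyte, within the range of their groups. Most of this sum came from CSF1R, which fell from F to G with a log2 fold change of -1.39 (SE 0.34, edgeR adjusted p = 0.0396), where 1.99% of all genes were called lower. It was the only one called of the 5 somatic marker IDs kept by the filter, among which COL1A2 had 0.18, CD68 0.20, ACTA2 -0.17 and CLDN5 -0.96. Of the 6 oocyte markers, BCAR4 was called higher in the same contrast (1.52, SE 0.26, edgeR adjusted p = 0.0283), where 1.89% of all genes were called higher, and the others were not called. Both calls were lost without the replicate block and without the sum of F or of G in replicate 1, where 0 genes were called from F to G. Whether they held under the other alternatives was not recorded for the markers. Of the endothelial genes, CD34 and CDH5 had counts in at most 4 oocytes and CLDN5 in 41, the macrophage gene CD68 had counts in 64, and COL1A1 and COL3A1 in at most 4. The part of somatic RNA in the levels of ARRDC2 and NAALAD2 was not tested.

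The difference between the library replicates was not part of the rule and was tested, but it comes from the 16 sums and the fit that also chose the genes, and its p-values share their residual spread and may therefore be too small for the members. ARRDC2 was 2.60-fold lower in replicate 2, a log2 difference of -1.38 (SE 0.22, edgeR adjusted p = 2.15e-05), and was lower there in 8 of 8 size groups. The largest gap between replicates was in F, and without the sum of F in replicate 1 or in replicate 2 the difference was -1.17 both times (edgeR adjusted p = 7.87e-05 and 6.64e-05). Its mean over the groups was 5.86 log2 CPM in replicate 1 and 4.48 log2 CPM in replicate 2. NAALAD2 differed in the other direction, by 0.63 (SE 0.32, edgeR adjusted p = 0.0973), and was higher in replicate 2 in 6 of 8 groups, which did not pass the threshold. Of all genes tested, 57.7% were called between the replicates, 31.7% as lower and 25.9% as higher in replicate 2, so that a call alone does not set ARRDC2 apart. Library preparation, read length and the oocytes themselves cannot be told apart in this difference.

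None of the 4 relatives of ARRDC2 that were measured was called between size groups, where between 0 and 3.88% of all genes were called per contrast, so that this does not set them apart. Of 9 other arrestins listed, 5 could be paired with a gene ID and 4 were kept, ARRDC1, ARRDC3 and ARRDC4, which are alpha-arrestins, and ARRB1, a beta-arrestin that desensitises receptors. From 80–99 μm to F, ARRDC1 had a log2 fold change of 0.83 (SE 0.35, edgeR adjusted p = 0.254) and from F to G of -0.86 (SE 0.42, adjusted p = 0.2), whereas ARRDC3 had 0.29 and 0.28 and ARRDC4 had -0.25 and -0.10. ARRB1 had 1.19 (SE 1.28) and -1.21 (SE 1.53). The median of the 4 was 0.56 and then -0.48, beside -0.033 and -0.058 over all genes. ARRDC1 had 88.1 CPM in the sum of F and 41.8 CPM in that of E in replicate 1, and 20.8 and 12.4 CPM in replicate 2.

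All 4 were called between the replicates, 2 in each direction, beside 57.7% of all genes. ARRDC1, like ARRDC2, was lower in replicate 2, by -1.41 (SE 0.22, edgeR adjusted p = 1.54e-05), as was ARRB1, by -2.37 (SE 0.82, adjusted p = 0.018). ARRDC3 and ARRDC4 were higher there, by 1.70 (SE 0.22, adjusted p = 2.81e-06) and 2.60 (SE 0.23, adjusted p = 2.74e-08). None of the 9 ligases of the NEDD4 family listed could be paired with an ID, and they were not analysed here.

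Lists of endocytic genes and of adrenergic receptors and adenylyl cyclases showed a single call over the size groups. All 8 genes of the clathrin and AP-2 coat, which gathers receptors into vesicles, were kept. AP2A2, a large subunit of AP-2, fell from F to G with a log2 fold change of -1.51 (SE 0.40, edgeR adjusted p = 0.0449), where 1.99% of all genes were called lower. Its sums stood at 58.3 CPM in F and 17.6 CPM in G in replicate 1, and at 29.8 and 11.9 CPM in replicate 2, so that G was lower in both. This call was lost without the replicate block (adjusted p = 0.835), with all 179 oocytes (adjusted p = 0.119) and on leaving out 7 of the 16 sums in turn, those of B, D and F in either replicate and of G in replicate 1. It held without the deepest F oocyte (-1.62, adjusted p = 0.032). Its log2 fold change was -1.57 without the block, -1.45 with all 179 oocytes and between -1.96 and -1.09 over all 16 sums left out in turn. The 9 paired genes of the ESCRT-III complex, which sorts cargo in endosomes, had no call, with a lowest adjusted p of 0.0785, nor had the 9 genes kept of the adrenergic receptors, which arrestins bind, and of the adenylyl cyclases, with 0.0725. With at most 3.88% of all genes called in any size contrast, the absence of calls does not set these lists apart.

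The enzymes nearest to NAALAD2 were mostly out of reach. Of 8 genes for the synthesis, cleavage and reception of N-acetylaspartylglutamate, 1 was paired, ASPA, which cleaves N-acetylaspartate and was not called in any contrast. Of 26 other zinc carboxypeptidases and related dipeptidases, 22 were paired and 19 kept, and none was called in the 7 size contrasts, with a lowest adjusted p of 0.147 from 80–99 μm to F and 0.0697 from F to G. Between 0 and 3.88% of all genes were called per contrast, so that 0 of 19 is near that share. The median log2 fold change of the 19 was -0.17 and then -0.19, beside -0.033 and -0.058 over all genes.

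The genes whose levels over the 16 sums were most like those of the members were ranked by Pearson's r on log2 CPM, centred within each replicate. For ARRDC2 the 5 highest values lay between 0.967 and 0.979, and the only gene among them with a paired symbol was C29H11orf24 (r = 0.967, with 0.986 over the 8 sums of replicate 1 and 0.906 over those of replicate 2). ENSBTAG00000048059, with 0.97, was also among the 14 genes called in opposite directions around F. For NAALAD2 the 5 highest lay between 0.905 and 0.937, among them CTBS, the lysosomal chitobiase (r = 0.911, with 0.899 and 0.928). ENSBTAG00000001571, with 0.908, was among the same 14 genes. The sums share libraries and depth, and the values are a description.

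In the RefSeq annotation of the assembly ARS-UCD2.0, which is not that of the files, ARRDC2 lies on chromosome 7 between IL12RB1 and KCNN1, and NAALAD2 on chromosome 29 between CHORDC1 and TRIM77. No annotated gene overlapped either.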

How the data were processed

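Polyadenylated mRNA of single oocytes was captured on beads, amplified by Smart-seq2 and sequenced. The authors trimmed reads with Trim Galore (0.6.6), aligned them with HISAT2 to the genome build ARS-UCD1.2 (bosTau 9), and used SeqMonk to obtain the deposited raw counts, which are not normalized. How strand, overlapping genes and reads with several alignments were handled is not given in the sources used here. The study's analysed set of oocytes was used (97 of replicate 1 and 68 of replicate 2). Gene IDs on several lines were summed (23161 lines, 21218 IDs), and 3608 IDs were paired with symbols from supplementary tables held in part. The members and gene lists were chosen with earlier results of these data known.

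Counts were summed by size group and replicate and analysed in edgeR (4.0.16) with filterByExpr (minimum count 10, minimum total 15), TMM, the quasi-likelihood test and the replicate as a block. SE was the size of the log2 fold change divided by the square root of F. The replicate number marks a shared library batch, and sums of 1 replicate deviated together (r between 0.398 and 0.694 over 28 pairs of sums). Because the p-values measure the spread between sums whose animals are unknown, that spread may be in part technical. Per-oocyte CPM used TMM effective library sizes, and log2 CPM of sums a prior count of 2. The genes named were the members, called genes of the lists, and the 5 genes most like each member. ARRDC1, ARRDC3, ARRDC4, ARRB1, ASPA and the marker genes were named beyond called genes as members of short lists, after their values were seen. The scripts were tested on simulated data. Alternatives were no block, RLE normalization, DESeq2 (1.42.0), no filter, single oocytes, all 179 oocytes, 250000 counts per oocyte, the highest line per ID, and leaving out each sum, the deepest F oocyte or, added after seeing the data, the deepest H oocyte. R 4.3.3 and Python 3.11.15 were used.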

Additional observations from a re-analysis of the deposited data

Results flagged for a closer look

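For NAALAD2, 3 of the 8 sets tested (each the 4 to 10 oocytes of a size group and replicate) held an oocyte far above the others of its set, and chance alone marks about 1 set in 20 where values are normally distributed. The levels of NAALAD2 are sparse and bounded at 0, so that this rate need not hold for them. In D of replicate 2, the highest of 8 oocytes had 26.3 CPM, against 12.3 CPM for the next. In F of replicate 2, the highest of 7 oocytes had 4.77 CPM, from 5 counts, against 2.05 CPM for the next. In G of replicate 2, the highest of 7 oocytes had 13.3 CPM, against 5.23 CPM. None of the 8 sets was marked for ARRDC2, and the 11 oocytes of F in replicate 1, with the oocyte at 515 CPM, were too many for this test.

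Among the 14 deposited oocytes outside the analysed set, 5 held more than 3 counts of ARRDC2 or NAALAD2. ARRDC2 had 68 counts in an F oocyte of replicate 1, 102.46 μm in diameter (37.2 CPM of the total count), which is below the lowest analysed oocyte of that group and replicate. It had 48 counts in an A oocyte and 7 in a D oocyte of replicate 1, 11 in a C oocyte and 6 in an F oocyte of replicate 2. NAALAD2 had 12 counts in the same C oocyte, 77.19 μm in diameter (5.00 CPM of the total count).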

How the results depend on the processing

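From 80–99 μm to F and from F to G, the log2 fold changes of ARRDC2 and NAALAD2 kept their direction under every alternative, which the choice of the genes helps to set. Of these recomputed values, 94 moved by less than the SD between the replicates and 18 by more. For ARRDC2 from 80–99 μm to F, the value was 2.01 with all oocytes, 1.21 after thinning to 250000 counts, 1.13 without the deepest F oocyte and between 1.15 and 2.58 on leaving out 1 sum in turn. Thinning and leaving out a sum also change the weight of other oocytes, so the part of the deepest F oocyte there was not tested. For NAALAD2 from 80–99 μm to F, it was -3.12, and -2.61 with single oocytes, -3.84 after thinning, -2.73 in replicate 2 alone and between -3.48 and -2.73 on leaving out 1 sum. From F to G it was 2.52, and 2.11 with single oocytes, 3.37 after thinning, 2.22 in replicate 1 alone and between 2.15 and 2.93 on leaving out 1 sum. After thinning, which was a single random draw, F held 1 count of NAALAD2 in all, on which its values there rest. The cause of the shifts under these settings was not tested. Sign changes occurred in the other contrasts, where 253 of the recomputed values moved by less than the SD and 21 by more. Another 6 changed sign from a fitted value larger than the SD, and so also moved by more than it. After thinning, NAALAD2 went to -0.033 from A to B and to 0.17 from C to 80–99 μm, and ARRDC2 to -0.066 from D to E. On leaving out 1 sum, NAALAD2 lay between -0.41 and 0.14 from C to 80–99 μm, and ARRDC2 between -0.32 and 0.83 there and between -0.40 and 0.58 from A to B.

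The difference between replicates stayed past the threshold for ARRDC2 in 25 of 25 alternatives. For NAALAD2 (0.63, edgeR adjusted p = 0.0973) it passed with DESeq2 (0.69, adjusted p = 0.0444), with single oocytes (0.68, adjusted p = 0.0334) and without the sum of H in replicate 1 (adjusted p = 0.0254) or replicate 2 (adjusted p = 0.0263), and it lay between 0.46 and 0.84 on leaving out 1 sum. Over the 7 contrasts, edgeR called 1 gene of the pathway lists, but 0 without the replicate block, 6 with DESeq2, 3 without a filter on low counts, 25 with single oocytes, 0 with all 179 oocytes, 3 after thinning and between 0 and 6 on leaving out 1 sum. Genes called in opposite directions around F numbered 14, but 185 with DESeq2, more than that with single oocytes (the highest count of any alternative), 136 without a filter, 36 without the deepest H oocyte, 3 after thinning, 0 without the block, without the deepest F oocyte or with all 179 oocytes, and between 0 and 176 on leaving out 1 sum. From 80–99 μm to F the count of 70 reached 0 and, without A of replicate 2, 291 on leaving out 1 sum (slightly more without A of replicate 1), and was 669 with single oocytes, 130 without the deepest H oocyte, 17 after thinning, 2 with all 179 oocytes and 0 without the block, and it rose without a filter too. The block changed no direction of the members around F (without it, 2.21 and -2.17 for ARRDC2, -3.11 and 2.56 for NAALAD2).

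Depth limits NAALAD2, which had at most 5 counts in any oocyte of F, and the share of F oocytes with at least 2 counts was 16.7%. Animals are not named, so oocytes of 1 animal cannot be told apart from independent oocytes. Size group and replicate are unevenly crossed. Overlapping genes, strand and shared reads could not be examined from counts.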
